A study of Mus musculus with 10 samples.

Results

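Trem2, Tyrobp and 6 genes known from damage-associated macrophages were followed in CNS-associated macrophages, the macrophages at the borders of the brain. The 8 members, Trem2, Tyrobp, Spp1, Gpnmb, Cst7, Clec7a, Lgals3 and Fabp5, were chosen by gene symbol from the 53546 genes of the deposited counts, and all 8 were found. No member passed the test between genotypes. Tyrobp had overlapping levels in the 3 genotypes. Trem2 and Lgals3 were lower in each library of mice homozygous for the Mrc1-CreERT2 allele than in any wild-type library. Of all 14023 tested genes, 3.57% were lower without overlap in the same way. Cst7 was lower too, but its nearest libraries held 13 and 14 counts. It passed the filter on low counts through the groups where it is high. None of these members passed correction over all genes.

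The libraries are bulk RNA sequencing of cells sorted from the brains of individual, untreated C57BL/6N mice aged 6 to 8 weeks. The Cre-Cre group held 4 mice of the genotype Mrc1-CreERT2/Mrc1-CreERT2, the Cre-pos group 3 mice of the genotype Mrc1-CreERT2/wt and the WT group 3 mice with no such allele. CreERT2, a Cre recombinase fused to part of the oestrogen receptor, is by the allele's name driven from Mrc1, the mannose receptor gene, and no induction of Cre is labelled in any mouse. The comparisons ask whether carrying the allele on a single chromosome or on both goes with other transcript levels.

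TREM2 is a surface receptor of macrophages and microglia that binds lipids and lipoproteins. It has no signalling motif of its own and pairs with TYROBP, also called DAP12, whose phosphorylated motif recruits the kinase SYK. In mouse models of neurodegeneration, microglia switch on a set of damage-associated genes, and the later part of that switch needs Trem2. Spp1, Gpnmb, Cst7, Clec7a, Lgals3 and Fabp5 are known from this state and from lipid-laden macrophages of other tissues.

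Library totals ran from 22986972 to 36575446 counts. Levels are given as CPM, counts per 1000000 counts of a library after scaling. Mrc1, the targeted gene, was at 441 to 542 CPM in Cre-Cre, 1985 to 2286 CPM in Cre-pos and 3065 to 3748 CPM in WT libraries, in the order of the labels. All 10 markers of CNS-associated macrophages had counts in each group, with summed levels of 15480 to 16425 CPM in Cre-Cre, 13815 to 16377 CPM in Cre-pos and 14668 to 15580 CPM in WT libraries. These sums include Mrc1, so its fall offsets rises of other markers. For Cre-Cre over WT, 9 of the 10 were fitted above 0 and only Mrc1 below, where 48.9% of tested genes were below. Their median log2 fold change was 0.38. By edgeR 6 were higher at an unadjusted p under 0.05, where 7.52% of tested genes had such a p in either direction. Neutrophil markers summed to at most 1.38 CPM and endothelial markers to at most 4.52 CPM in any library. Lyve1, a hyaluronan receptor among the macrophage markers, rose in Cre-Cre libraries over WT libraries by a log2 fold change of 0.85 (SE 0.10, adjusted p = 0.0215 by edgeR's test, described with Trem2). That call was lost without any of the Cre-Cre libraries, without WT replicate 1 or 2 (adjusted p = 0.0153 to 0.105 over the 10 fits that leave out a library) and with the replicate block (adjusted p = 0.179). Lyve1 also passed for Cre-Cre over Cre-pos (log2 fold change 0.79, SE 0.098, adjusted p = 0.0421 by edgeR). With a library left out, 1 to 2 genes in all passed in that comparison. Gja1, an astrocyte gap junction gene, was at 3.78 to 13.5 CPM in Cre-Cre and 8.89 to 13.5 CPM in Cre-pos libraries and had 0 counts in all 3 WT libraries (adjusted p = 0.0315 by edgeR for Cre-Cre over WT). That call was lost without any library other than WT replicate 3 (adjusted p = 0.0495 to 0.138) and with the replicate block (adjusted p = 0.329). Gja1 passed the filter on low counts only through the groups where it is high, so its call is given as a description. Choroid plexus markers summed to 0 to 66.7 CPM in Cre-Cre, 0.0628 to 108 CPM in Cre-pos and 0 to 347.5 CPM in WT libraries. Over the 10 libraries, oligodendrocyte markers summed to 53.2 to 178 CPM, B cell markers to 45.9 to 121 CPM, T and NK cell markers to 0.979 to 62.6 CPM, astrocyte markers to 5.26 to 72.4 CPM and fibroblast markers to at most 11.8 CPM. Microglial markers were present in every library and are given beside Trem2.

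Trem2 was lowest in Cre-Cre macrophages. It stood at 443, 452, 442 and 518 CPM in the Cre-Cre libraries, 662, 760 and 524 CPM in the Cre-pos libraries and 531, 554 and 661 CPM in the WT libraries. All 4 Cre-Cre libraries lay below every library of the other genotypes, while Cre-pos and WT libraries overlapped. Its log2 fold change was -0.33 (SE 0.14) for Cre-Cre over WT, -0.48 (SE 0.14) for Cre-Cre over Cre-pos and 0.16 (SE 0.15) for Cre-pos over WT. None passed the quasi-likelihood test of edgeR, with p-values adjusted over all tested genes by the Benjamini-Hochberg method. The adjusted p was 0.653 for Cre-Cre over WT, 0.985 for Cre-Cre over Cre-pos and 1.0 for Cre-pos over WT. In bulk samples, fewer cells of a type and less RNA per cell cannot be told apart.

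Tyrobp, the adaptor, showed no such separation of the genotypes. It was at 1626, 1611, 1817 and 1707 CPM in Cre-Cre, 1856, 1846 and 1486 CPM in Cre-pos and 1721, 1481 and 1579 CPM in WT libraries, and the genotypes overlapped. The log2 fold change of Cre-Cre over WT was 0.08 (SE 0.10, adjusted p = 0.999 by edgeR), and those of Cre-pos over WT and Cre-Cre over Cre-pos were 0.12 (SE 0.10) and -0.03 (SE 0.10).

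A ratio of both genes within a library needs no scaling between libraries. For each 100 counts of Tyrobp there were 27.5 ± 2.49 counts of Trem2 in Cre-Cre (SD, n = 4), 37.4 ± 3.32 in Cre-pos (SD, n = 3) and 36.7 ± 5.53 in WT libraries (SD, n = 3). The highest Cre-Cre library, at 30.3, was below the lowest WT library, at 30.9, and the lowest Cre-pos library, at 35.3. Cre-pos and WT libraries overlapped. This ratio was chosen after the values of both genes were known, so it is a description with no test.

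Microglia also express Trem2, and the sum of their markers too was lowest in Cre-Cre libraries, though no marker passed edgeR's test. The 8 microglial markers summed to 1198 to 1827 CPM in Cre-Cre, 2090 to 3777 CPM in Cre-pos and 1832 to 4940 CPM in WT libraries, so that Cre-Cre libraries lay below all others. None of the 8 was at 0 in a whole group. Taken singly, 4 of the 8 were lower without overlap for Cre-Cre against WT libraries, where 3.57% of tested genes were. Against Cre-pos libraries 2 of the 8 were, where 3.72% of tested genes were. P2ry12 overlapped, at 519 to 698 CPM in Cre-Cre and 504 to 1281 CPM in WT libraries. Of the 8, Tmem119 had 86.2 to 130 CPM in Cre-Cre, 295 to 512 CPM in Cre-pos and 258 to 824 CPM in WT libraries. For Cre-Cre over WT it missed the threshold (adjusted p = 0.115 by edgeR) and passed by DESeq2 (adjusted p = 1.9e-07), without the count filter (adjusted p = 0.0485 by edgeR) and with the title letter in the fit (adjusted p = 0.0433 by edgeR). The part of these transcripts in the Trem2 values was not tested.

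**Figure D1:**
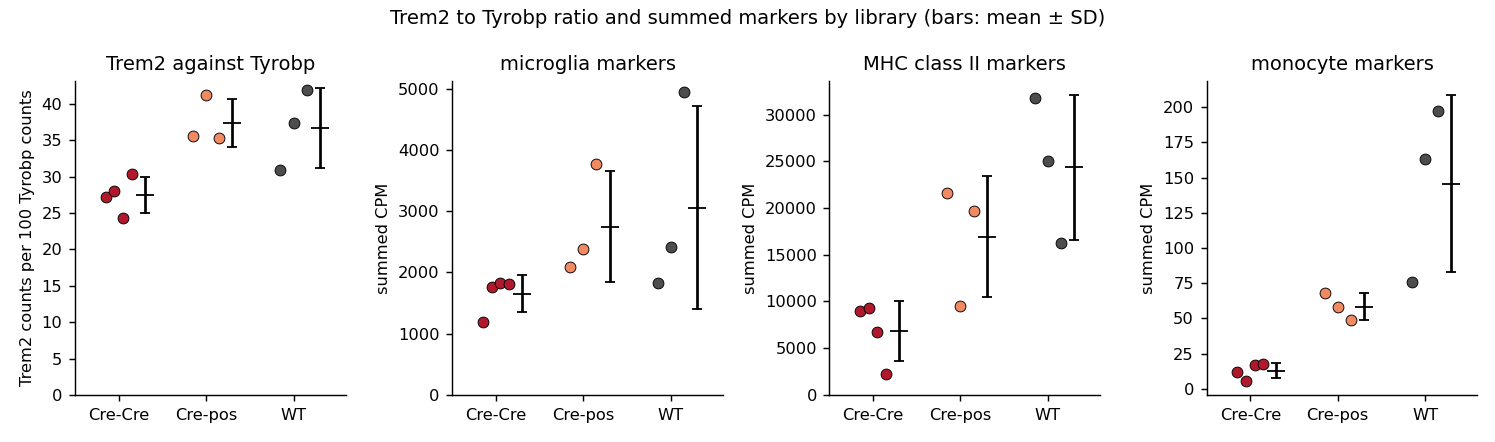
Counts of Trem2 per 100 counts of Tyrobp and summed CPM of the microglial, MHC class II and monocyte markers, a point for each library, with the mean and SD of each genotype beside the points. The ratio is 24.3 to 30.3 in Cre-Cre, 35.3 to 41.2 in Cre-pos and 30.9 to 41.9 in WT libraries, and Cre-Cre libraries also hold the lowest marker sums.

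Lgals3, which encodes the galactoside-binding lectin galectin-3, was highest in WT macrophages. It was at 10.8, 22.2, 44.9 and 5.16 CPM in Cre-Cre, 18.2, 14.1 and 27.2 CPM in Cre-pos and 66.3, 75.8 and 47.8 CPM in WT libraries. Neither Cre-Cre nor Cre-pos libraries overlapped WT libraries, while they overlapped each other. The log2 fold change was -1.61 (SE 0.60, adjusted p = 0.624 by edgeR) for Cre-Cre over WT and -1.68 (SE 0.66, adjusted p = 0.791 by edgeR) for Cre-pos over WT. It was 0.07 (SE 0.60) for Cre-Cre over Cre-pos.

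Cst7, which encodes cystatin F, an inhibitor of lysosomal cathepsins, was close to absent in Cre-Cre macrophages and low in the others. The 4 Cre-Cre libraries held 0, 0, 13 and 0 counts, the Cre-pos libraries 60, 222 and 86 counts and the WT libraries 159, 125 and 14 counts. In CPM the one Cre-Cre library with counts was at 0.381, just below the lowest WT library at 0.436. A count of 0 allows up to 3 counts, which is 0.0817 to 0.130 CPM in these libraries and covers counting error only. Cst7 passed the filter on low counts through the Cre-pos and WT libraries. Its log2 fold change was -5.02 (SE 2.06, adjusted p = 0.653 by edgeR) for Cre-Cre over WT and -5.38 (SE 2.09, adjusted p = 1.0 by edgeR) for Cre-Cre over Cre-pos.

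Trem2, Cst7 and Lgals3 had no overlap between Cre-Cre and WT libraries, all lower, where 3.57% of the 14023 tested genes were lower without overlap. Cst7 had passed the count filter through the groups where it is high, so it is left out of the counts over members that follow, and 2 of the other 7 members, Trem2 and Lgals3, were lower without overlap. Cre-pos libraries were lower than WT libraries without overlap for 1 member, Lgals3, against 4.16% of tested genes, and Cre-Cre libraries lower than Cre-pos libraries for 1, Trem2, against 3.72%. Cre-Cre libraries take part in 2 of these comparisons and WT libraries in 2, so the comparisons share samples. With Cst7 included, 0 of 8 members were called by edgeR in any comparison, where 0.0642% of tested genes were called for Cre-Cre over WT, 0.0% for Cre-pos over WT and 0.0214% for Cre-Cre over Cre-pos. DESeq2 also called 0 of 8 in each, where it called 1.99% of the genes it gave an adjusted p for Cre-Cre over WT, 1.41% for Cre-pos over WT and 0.796% for Cre-Cre over Cre-pos. Without Cst7, an unadjusted p under 0.05 was found for 2 members for Cre-Cre over WT, 1 for Cre-pos over WT and 1 for Cre-Cre over Cre-pos, where 7.52%, 5.82% and 4.86% of tested genes had such a p. The median log2 fold change of the 8 members, with Cst7 included, was -0.88 for Cre-Cre over WT, -0.41 for Cre-pos over WT and -0.23 for Cre-Cre over Cre-pos, beside medians of 0.02, 0.01 and 0.01 over all tested genes. With Cst7 left out, the middle member was Gpnmb at -0.67 for Cre-Cre over WT and Spp1 at -0.49 for Cre-pos over WT. For Cre-Cre over Cre-pos it was Fabp5 at -0.15.

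**Figure D2:**
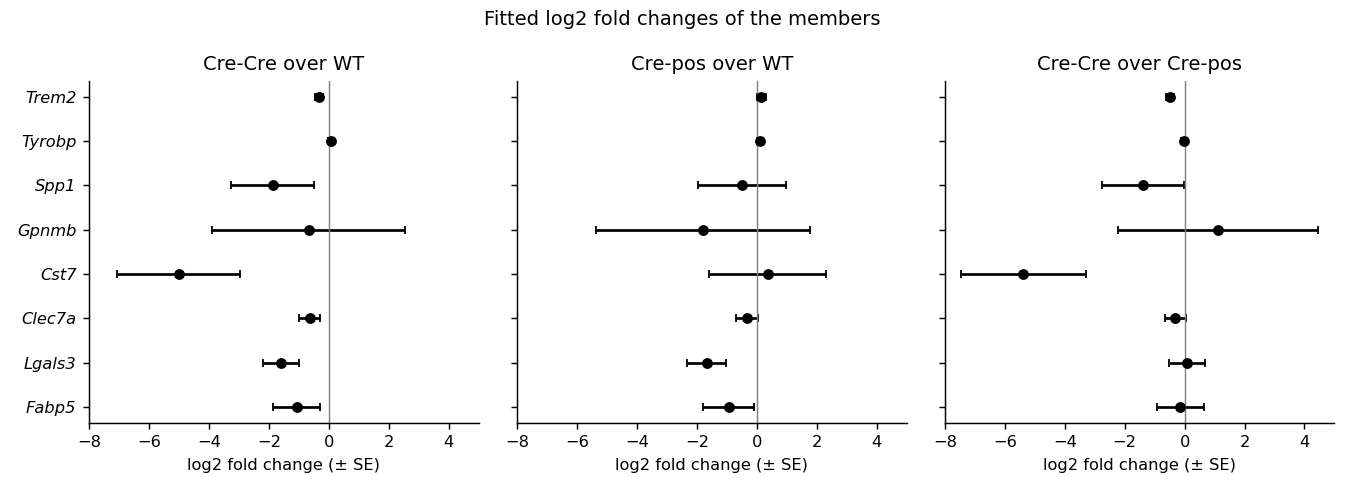
Fitted log2 fold changes of the 8 members with their standard errors, for Cre-Cre over WT, Cre-pos over WT and Cre-Cre over Cre-pos. Tyrobp sits near 0 with an SE of 0.10 in all 3 comparisons, while Gpnmb and Cst7 have standard errors from 1.96 to 3.57.

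The promoters of Trem2, Cst7 and Lgals3 are shown because they are the ones whose Cre-Cre libraries lay apart. RefSeq start sites of GRCm38.p6 were matched by symbol for 6 of the 8 members (not Tyrobp or Fabp5), and each window runs from 250 bases before the start to 50 bases after it, on the strand of the gene. The Trem2 window is chr17:48346151-48346450 on the plus strand, that of Cst7 chr2:150570165-150570464 on the plus strand and that of Lgals3 chr14:47373610-47373909 on the plus strand. Capitals mark matches, on either strand, to GGAAGT, a core of the ETS family that PU.1 belongs to, to TGANTCA, or to CACGTG or CATGTG, the E-boxes read by MITF and its relatives. TGANTCA is a loose form of the AP-1 motif TGACTCA, with any base in the middle.
Trem2: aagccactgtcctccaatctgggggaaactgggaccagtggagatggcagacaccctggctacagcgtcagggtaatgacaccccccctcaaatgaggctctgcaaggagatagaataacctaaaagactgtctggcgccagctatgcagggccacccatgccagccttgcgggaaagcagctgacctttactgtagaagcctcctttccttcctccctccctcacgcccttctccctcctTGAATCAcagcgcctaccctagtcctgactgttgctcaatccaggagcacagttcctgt
Cst7: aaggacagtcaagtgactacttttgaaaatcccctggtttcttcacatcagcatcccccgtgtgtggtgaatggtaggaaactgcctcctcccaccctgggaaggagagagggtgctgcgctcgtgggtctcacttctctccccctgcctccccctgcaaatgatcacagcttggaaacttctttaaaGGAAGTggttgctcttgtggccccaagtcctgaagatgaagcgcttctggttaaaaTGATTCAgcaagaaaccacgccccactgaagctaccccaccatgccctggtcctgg
Lgals3: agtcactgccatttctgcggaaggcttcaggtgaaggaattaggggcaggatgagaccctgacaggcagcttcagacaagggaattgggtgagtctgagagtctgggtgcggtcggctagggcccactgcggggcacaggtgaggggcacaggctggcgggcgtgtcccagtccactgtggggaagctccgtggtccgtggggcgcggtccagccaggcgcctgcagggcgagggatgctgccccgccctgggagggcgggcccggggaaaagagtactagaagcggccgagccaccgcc
TGANTCA was found in the windows of Trem2 and Cst7, 9 and 6 bases before the start, and not in that of Lgals3. It was also found in the Gpnmb window, while 7.81% of all 32851 promoter windows of this length hold it. GGAAGT was found in the Cst7 window and in a window of Spp1, against 23.8% of all windows. Neither CACGTG nor CATGTG was found in a member's window, against 7.15% and 14.2% of all windows. No motif searched for overlapped another in the printed windows. A match is a run of letters and not a measured binding site.

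Spp1, which encodes osteopontin, a secreted protein that binds integrins and CD44, had a wide range within each genotype. It was at 2.87, 0, 7.23 and 38.9 CPM in Cre-Cre, 50.2, 36.3 and 9.72 CPM in Cre-pos and 87.2, 22.0 and 25.9 CPM in WT libraries. In 3 of 4 Cre-Cre libraries it was below every other library, and the fourth lay among them. The log2 fold change was -1.88 (SE 1.38, adjusted p = 0.933 by edgeR) for Cre-Cre over WT and -0.49 (SE 1.47, adjusted p = 1.0 by edgeR) for Cre-pos over WT. The value for Cre-Cre over WT was -3.74 without Cre-Cre replicate 4 and -0.96 without WT replicate 1. In GENCODE vM21 another annotated gene, Gm42793, overlaps Spp1 on the same strand, and the labels do not say how reads were shared between them.

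Clec7a, which encodes dectin-1, a receptor for fungal glucans that also signals through SYK, overlapped in all 3 genotypes. It was at 55.9, 70.0, 125 and 168 CPM in Cre-Cre, 129, 117 and 144 CPM in Cre-pos and 111, 200 and 176 CPM in WT libraries. The log2 fold change of Cre-Cre over WT was -0.63 (SE 0.35, adjusted p = 0.762 by edgeR), and that of Cre-pos over WT was -0.32 (SE 0.38, adjusted p = 1.0 by edgeR). The value for Cre-Cre over WT was -0.42 without Cre-Cre replicate 1 and -0.96 without Cre-Cre replicate 4.

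Fabp5, a cytosolic fatty acid carrier, was at 8.93, 10.1, 6.70 and 4.71 CPM in Cre-Cre, 8.07, 15.5 and 1.81 CPM in Cre-pos and 30.6, 12.3 and 5.36 CPM in WT libraries. The groups overlapped, and the highest value was WT replicate 1. The log2 fold change was -1.08 (SE 0.78, adjusted p = 0.932 by edgeR) for Cre-Cre over WT and -0.93 (SE 0.85, adjusted p = 1.0 by edgeR) for Cre-pos over WT. Without WT replicate 1 these values were -0.21 and -0.074 in that order, and without Cre-pos replicate 2 that of Cre-pos over WT was -1.70. WT replicate 1 was the highest library for Spp1, Fabp5 and Gpnmb. It was also the highest for the choroid plexus, MHC class II and T and NK cell markers. Cre-pos replicate 4, the next highest for the choroid plexus markers at 108 CPM, had 1.81 CPM of Fabp5, 9.72 CPM of Spp1 and no count of Gpnmb. The part of such cells in these values was not tested.

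Gpnmb, a glycoprotein of macrophages with loaded lysosomes, was seen in a single mouse of each genotype. Cre-Cre replicate 3 held 453 counts, Cre-pos replicate 1 held 146 counts and WT replicate 1 held 466 counts, or 13.3, 4.59 and 15.9 CPM. The other 7 libraries held 0. The fitted log2 fold changes, -0.67 (SE 3.22) for Cre-Cre over WT and -1.79 (SE 3.57) for Cre-pos over WT, therefore rest on 1 library in each group.

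**Figure D3:**
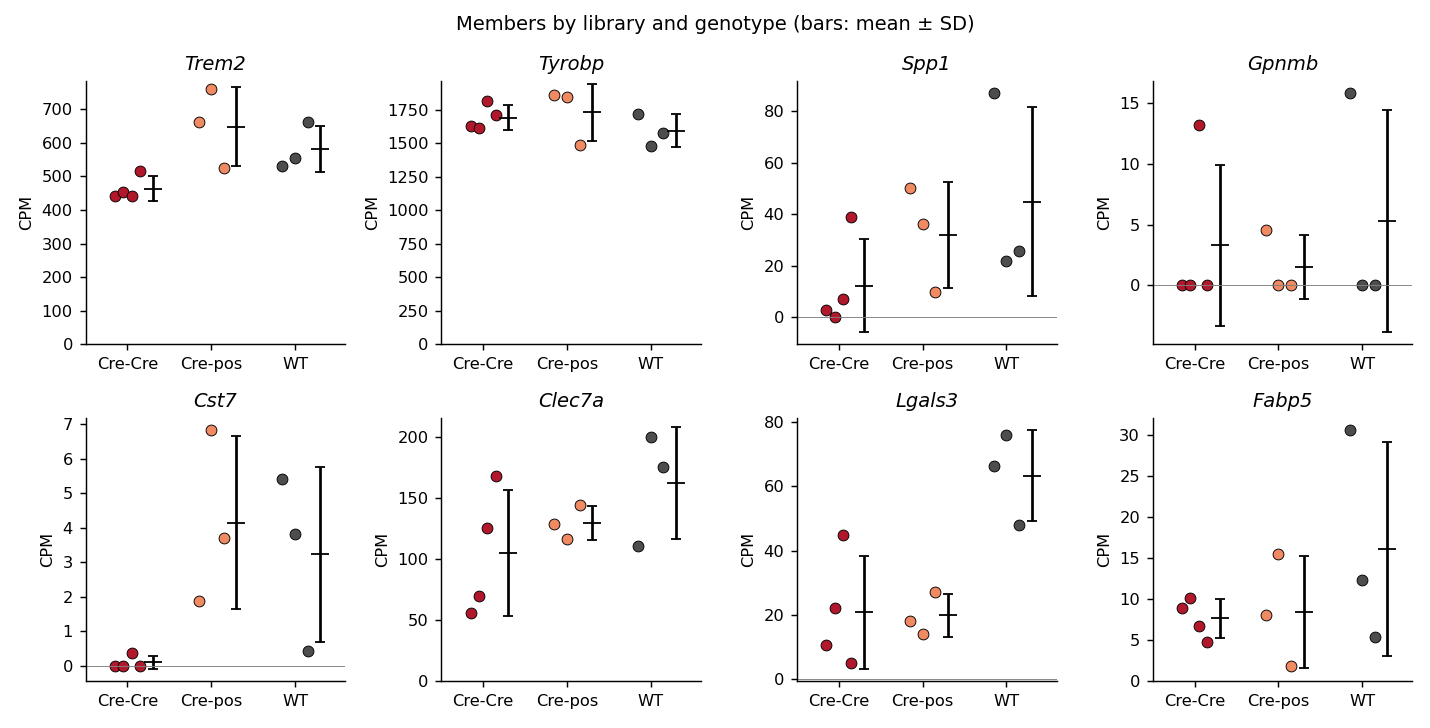
CPM of each member in the 10 libraries, a point for each library, with the mean and SD of its genotype beside the points. Trem2 is at 442 to 518 CPM in Cre-Cre libraries and at 524 CPM or more in the others, Tyrobp overlaps in all genotypes, and Gpnmb is above 0 in 1 library of each.

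Summed markers of antigen-presenting cells and of monocytes were also lowest in Cre-Cre libraries. The 4 MHC class II markers summed to 2286 to 9251 CPM in Cre-Cre, 9530 to 21579 CPM in Cre-pos and 16291 to 31747 CPM in WT libraries, and 0 of the 4 passed by edgeR in any comparison. The 6 monocyte markers summed to 5.72 to 17.5 CPM in Cre-Cre, 49.1 to 68.0 CPM in Cre-pos and 75.7 to 198 CPM in WT libraries. Of these 6, 1 was at 0 in all Cre-Cre libraries, 3 in all Cre-pos libraries and 1 in all WT libraries. Ccr2, the chemokine receptor of monocytes, was the 1 of 4 tested monocyte markers that passed for Cre-Cre over WT, where 0.0642% of all tested genes did. It was at 5.72 to 9.29 CPM in Cre-Cre, 35.1 to 57.9 CPM in Cre-pos and 68.0 to 161 CPM in WT libraries (log2 fold change -4.18, SE 0.36, adjusted p = 0.00216 by edgeR for Cre-Cre over WT). That call was lost with the replicate block (adjusted p = 0.141). Ccr2 also passed for Cre-Cre over Cre-pos (log2 fold change -2.80, SE 0.34, adjusted p = 0.0421 by edgeR), where 0.0214% of all tested genes did. With a library left out, 1 to 2 genes in all passed in that comparison. For both sums the Cre-Cre libraries lay below all others, and for the monocyte markers Cre-pos libraries also lay below WT libraries. Lgals3 in Cre-pos libraries overlapped with Cre-Cre libraries, and Cst7 in Cre-pos libraries overlapped with WT libraries. The 7 dendritic cell markers summed to 74.8 to 226 CPM in Cre-Cre, 128 to 189 CPM in Cre-pos and 115 to 143 CPM in WT libraries, which overlapped. The part of such cells in the values of the members was not tested.

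The members differed widely in level. Per 1000 bases of the main annotated transcript in GENCODE vM21, the mean level over the 10 libraries was 2966 CPM for Tyrobp, 510 CPM for Trem2, 183 CPM for Clec7a, 23.4 CPM for Lgals3, 18.6 CPM for Spp1, 10.6 CPM for Fabp5, 2.28 CPM for Cst7 and 0.911 CPM for Gpnmb. The order was the same per 1000 bases of all annotated exons. Lgals3 and Spp1 are neighbours that overlap in their library values.

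The receptor and its adaptor had the smallest spread between mice of the 8 members. The coefficient of variation over the 10 libraries was 8.32% for Tyrobp and 19.4% for Trem2, where the median gene was at 12.6% above 1000 CPM and at 17.7% from 100 to 1000 CPM. Clec7a, in that second band, was at 34.8%, above 95.9% of its genes. Spp1, Fabp5 and Lgals3 were at 95.2%, 77.9% and 73.0%, above 99.0%, 96.7% and 95.4% of the genes from 10 to 100 CPM, whose median was 35.7%. The median spread falls as the level rises, and Fabp5, at a mean of 10.4 CPM, lies at the low edge of its band. Its rank there is thus raised by its level. Cst7 at 113% and Gpnmb at 181% belong to the genes from 1 to 10 CPM, where the median was 89.6% and 62.8% of genes were at 0 in at least 1 library. From 10 to 100 CPM 4.04% of genes were, Spp1 among them.

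**Figure D4:**
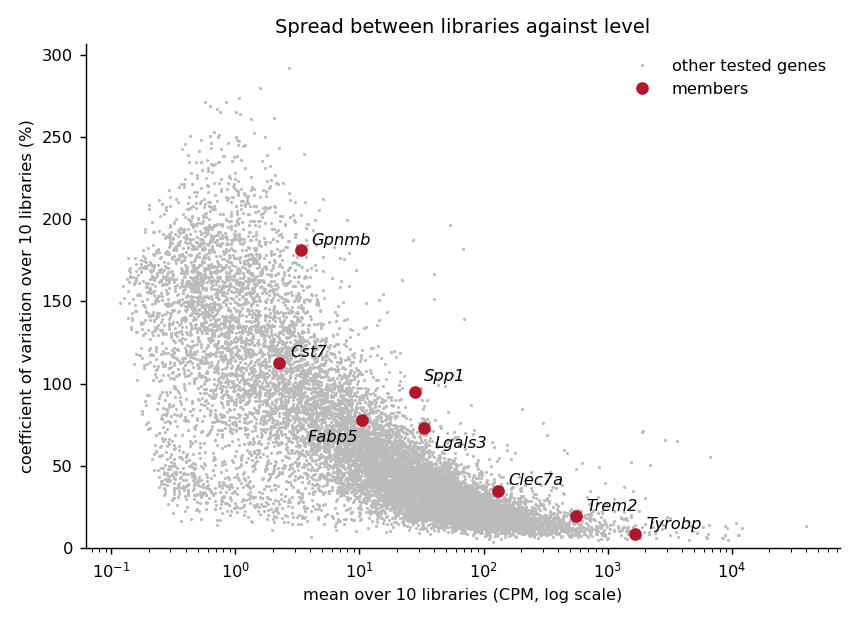
Coefficient of variation over the 10 libraries, in percent, against the mean CPM on a log scale, for the 14023 tested genes, with the members in red. Tyrobp and Trem2 lie among genes of their level, and Spp1, Lgals3, Fabp5 and Clec7a lie above most genes of theirs.

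No correlation between members across mice passed adjustment. Over the 28 pairs of members, 0 had a correlation of log2 CPM over the 10 libraries that passed adjustment over the pairs, by Pearson's r or by Spearman's rho, and 1 had an unadjusted Pearson p under 0.05. For Trem2 and Tyrobp, Pearson's r was 0.27 (permutation p = 0.44, adjusted p = 0.696) and Spearman's rho was 0.18 (permutation p = 0.633, adjusted p = 0.739). Without the 2 libraries farthest from the median of Trem2, r was -0.43, and centred within genotype it was 0.51 (permutation p = 0.13). The highest r was that of Spp1 and Clec7a, at 0.63 (permutation p = 0.0535, adjusted p = 0.419), with a Spearman's rho of 0.30 (permutation p = 0.405, adjusted p = 0.709). Without the 2 libraries farthest from the median of Spp1 it was -0.22, so the relation rests on those libraries. Centred within genotype it was 0.46.

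Among 6442 other genes above 20 CPM, those most like Trem2 over the 10 libraries were Basp1 (Pearson's r = 0.91), Ciao2b (0.88) and Junb (0.87). Junb, a subunit of AP-1, was at 84.5 CPM in Cre-Cre, 120 CPM in Cre-pos and 105 CPM in WT libraries on average. Those most like Tyrobp were Lsm3 (0.93), Orai3 (0.91) and Ggps1 (0.91). These are the top of many correlations over 10 libraries that share scaling and genotype, and they are given as a description.

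No partner that carries the TREM2 signal passed the test. Of 21 genes for kinases, phosphatases, adaptors and sheddases around TREM2 and DAP12, 0 passed edgeR's test in any comparison, 0 had an unadjusted p under 0.05 and DESeq2 called 0. For Cre-Cre over WT, 11 of 21 were fitted below 0, where 48.9% of tested genes were, with a median log2 fold change of -0.01 beside 0.02 over all tested genes. Fcer1g, the other common adaptor of this kind, averaged 2210 ± 265 CPM in Cre-Cre (SD, n = 4), 2174 ± 99.7 CPM in Cre-pos (SD, n = 3) and 2039 ± 81.0 CPM in WT libraries (SD, n = 3). Syk, the kinase, was at 122 ± 13.6 CPM in Cre-Cre (SD, n = 4), 108 ± 9.83 CPM in Cre-pos (SD, n = 3) and 108 ± 4.19 CPM in WT libraries (SD, n = 3). Lyn, a Src-family kinase, had a log2 fold change of -0.01 and Ptpn6, the phosphatase SHP-1, of -0.18 for Cre-Cre over WT.

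Other receptors that use DAP12 were mostly lowly expressed. Of 13 such genes 10 were tested, 0 passed in any comparison, and for Cre-Cre over WT 9 were fitted below 0 with a median of -1.38. DESeq2 called 0 of them, and 2 had an unadjusted p under 0.05 in that comparison, both lower. These were Siglech and Sirpb1a. Sirpb1a was at 0 to 0.245 CPM in Cre-Cre and 1.99 to 6.73 CPM in WT libraries. It passed the filter on low counts through the groups where it is high. The counts and the median of this list include it and are given as a description. Over all tested genes 48.9% were fitted below 0 and 7.52% had such a p. Trem1 and Trem3, the neighbours of Trem2 in its gene family, had 0 counts in all 10 libraries. Siglech, which microglia express, was at 74.9 ± 21.0 CPM in Cre-Cre (SD, n = 4), 137 ± 41.5 CPM in Cre-pos (SD, n = 3) and 149 ± 63.8 CPM in WT libraries (SD, n = 3). Clec5a, a receptor of myeloid cells, was at 101 ± 9.53 CPM in Cre-Cre (SD, n = 4), 130 ± 11.1 CPM in Cre-pos (SD, n = 3) and 86.5 ± 29.4 CPM in WT libraries (SD, n = 3). Sirpb1a, Sirpb1b and Sirpb1c, and likewise Pilrb1 and Pilrb2, are close copies whose reads may be split.

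The other genes of the damage-associated programme were taken as an early and a late part. Of 8 early genes, which rise without Trem2 in the mouse microglial programme, 0 passed by edgeR in any comparison. Their median for Cre-Cre over WT was -0.01, 2 had an unadjusted p under 0.05, both higher, and DESeq2 called 1, Ctsb. Such a p was found for 7.52% of all tested genes, and DESeq2 called 1.99% of the genes it gave an adjusted p. Apoe, a lipid carrier, averaged 41702 ± 4008 CPM in Cre-Cre (SD, n = 4), 40806 ± 8046 CPM in Cre-pos (SD, n = 3) and 36278 ± 3599 CPM in WT libraries (SD, n = 3). Ctsb, the protease cathepsin B, had a log2 fold change of 0.30 (SE 0.08, adjusted p = 0.414 by edgeR), with all Cre-Cre libraries above all WT libraries, and Lyz2, lysozyme, of -0.16.

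Of 13 late genes 12 were tested and 0 passed by edgeR in any comparison. For Cre-Cre over WT the median was -0.39, 7 of 12 were fitted below 0 and 5 had an unadjusted p under 0.05, all lower, while DESeq2 called 4. Over all tested genes 48.9% were fitted below 0, so 7 of 12 is near that share. Such a p was found for 7.52% of them, and DESeq2 called 1.99% of the genes it gave an adjusted p. Those 4 were Cd9, Axl, Serpine2 and Ccl6, of which Axl was set by the rule for named genes and the others were chosen after their values were seen. Cd9, a tetraspanin, was at 16.1 to 36.4 CPM in Cre-Cre, 82.7 to 130 CPM in Cre-pos and 94.6 to 213 CPM in WT libraries, a log2 fold change of -2.35 (SE 0.35, adjusted p = 0.0567 by edgeR) for Cre-Cre over WT. Axl, a receptor for dying cells, was at 271 to 492 CPM in Cre-Cre, 462 to 702 CPM in Cre-pos and 651 to 1397 CPM in WT libraries (-1.32, SE 0.29, adjusted p = 0.276 by edgeR). Serpine2, a protease inhibitor, had -2.35 (SE 0.56) and Ccl6, a chemokine, -0.72 (SE 0.21), each with Cre-Cre libraries below all WT libraries. Cd68, a lysosomal glycoprotein, and Ctsl, the protease cathepsin L, had 0.10 and 0.12.

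Homeostatic microglia genes, which the damage-associated programme turns down, had no call by edgeR among 17 tested, and most were fitted lower in Cre-Cre than in WT libraries. For Cre-Cre over WT 14 of 17 were fitted below 0, where 48.9% of tested genes were, with a median of -0.83 that was -0.061 without WT replicate 3. Of the 17, 8 had an unadjusted p under 0.05, all lower, and DESeq2 called 5. Such a p was found for 7.52% of all tested genes, and DESeq2 called 1.99% of the genes it gave an adjusted p. Tmem119 had a log2 fold change of -2.10 (SE 0.37, adjusted p = 0.115 by edgeR) and was chosen after its values were seen. Cst3, Fcrls and Cx3cr1, the most abundant, had -0.21, 0.19 and -0.17.

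Lipid handling genes of lipid-associated macrophages had a median of 0.08 over 15 tested genes, with 0 called by edgeR and 1, Cd9, by DESeq2, and 3 at an unadjusted p under 0.05. For the counts of this and the next lists, 7.52% of all tested genes had such a p for Cre-Cre over WT. DESeq2 called 1.99% of the genes it gave an adjusted p. Cd63, a tetraspanin of endosomes, Npc2, a cholesterol carrier, and Cd36, a scavenger receptor, had log2 fold changes of 0.21, 0.15 and 0.22 for Cre-Cre over WT. The 8 receptor genes for osteopontin had a median of -0.12, which was 0.31 without WT replicate 3, with 0 called by either tool and 1 at an unadjusted p under 0.05. Itgb5, Itgb1 and Itga9, integrin subunits, had -0.52, 0.04 and 0.36. The 4 MITF and TFE factors, regulators of lysosomal genes such as Gpnmb, had a median of -0.23, which was 0.097 without WT replicate 1, with 0 called by either tool and 0 at an unadjusted p under 0.05, and Tfe3, Tfeb and Tfec had 0.23, -0.58 and -0.10. Cystatin relatives and lysosomal cysteine proteases had a median of 0.09 over 8 tested genes, with 0 called by edgeR, 1, Ctsb, by DESeq2 and 2 at an unadjusted p under 0.05. Ctsc, the protease cathepsin C, had 0.22.

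A single gene of these pathway lists passed by edgeR. Clec12a, an inhibitory lectin beside Clec7a in its gene cluster, fell to 82.6 to 108 CPM in Cre-Cre libraries, against 158 to 255 CPM in WT libraries, with 168 to 193 CPM in Cre-pos libraries. The log2 fold change of Cre-Cre over WT was -1.22 (SE 0.17, adjusted p = 0.0490 by edgeR), and it was the 1 of 5 tested C-type lectins that passed. Over all tested genes 0.0642% passed in that comparison. Clec4n, which encodes dectin-2, had 0.12. The call was lost when any library other than WT replicate 2 was left out, with an adjusted p of 0.0309 to 0.19 over the 10 fits. It was also lost with the title letter in the fit (adjusted p = 0.0545) and with the replicate block (adjusted p = 0.343). Of the other galectins 4 were tested, with a median of -0.09, 0 called by either tool and 0 at an unadjusted p under 0.05. Lgals3bp, Lgals1 and Lgals9 had -0.38, 0.13 and -0.31. Of the other fatty acid-binding proteins 2 of 5 were tested, and Fabp4 and Fabp3 averaged at most 2.47 and 0.734 CPM in any genotype.

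**Figure D5:**
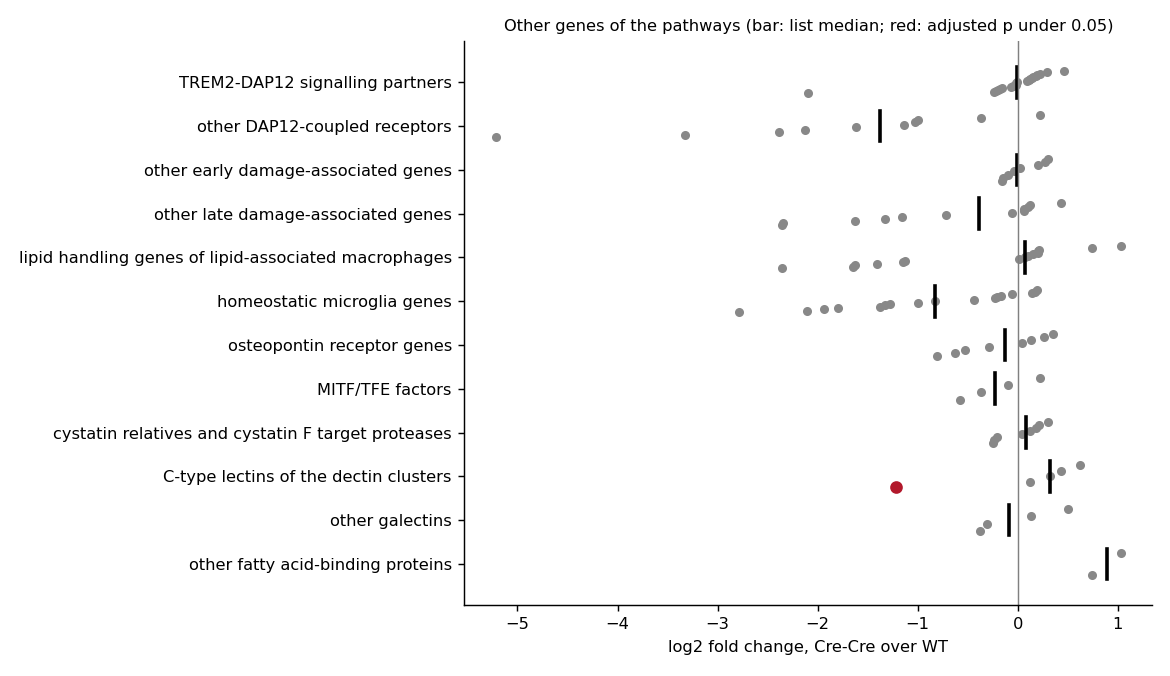
Log2 fold changes of Cre-Cre over WT for the tested genes of 12 lists, a point for each gene, with the list median as a bar and genes of adjusted p under 0.05 in red. Medians run from -1.38 for the other DAP12-coupled receptors to 0.89 for 2 fatty acid-binding proteins. The last of these ran from -1.89 to 6.37 with a library left out. The list of DAP12-coupled receptors includes Sirpb1a, which passed the count filter through the groups where it is high. Clec12a is the red point.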

How the data were processed

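Cells were sorted from 10 individual mice. Per the labels' protocols, cDNA was made with a SMARTer Ultra Low Input kit, 500 pg of RNA going in, and Nextera XT, in 1 batch. The authors deposited whole-number read counts per gene symbol. The submitters' processing notes name STAR 2.7.8a, featureCounts 2.0.2 and bcl2fastq 2.20. Genome build, annotation and strand setting were not stated, so overlapping and antisense genes cannot be told apart. The counts have no molecular identifiers, and PCR copies are counted.

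edgeR's filterByExpr, grouped by genotype, with a count of at least 10 and a total of at least 15, kept 14023 of 53546 genes, all 8 members among them. Libraries were scaled by trimmed-mean-of-M-values factors. Genotypes were compared by the quasi-likelihood method of edgeR 4.0.16 (R 4.3.3) with robust estimation, with all 10 libraries fitted and no term but genotype. P-values were adjusted over all tested genes by the Benjamini-Hochberg method, with calls at an adjusted p under 0.05. The standard error is the size of the log2 fold change over the root of F. The labels name separate mice, so p-values measure the spread between mice. Relations between members used log2 CPM with a prior count of 2 and 100000 permutations.

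Alternatives were DESeq2's size factors, no count filter, DESeq2 1.42.0, fits with the title letter or a replicate block, and leaving out each library. The Trem2 to Tyrobp ratio was added with the values known. The members and lists were chosen with earlier results of these data known. Named genes were the members, the 3 most abundant tested genes of each pathway list, genes of any list called in any comparison and the 3 genes most like Trem2 and Tyrobp. Gene lengths and names came from GENCODE vM21, which 93.5% of symbols matched.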

Additional observations from a re-analysis of the deposited data

Results flagged for a closer look

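Trem2 in Cre-Cre replicate 4, at 518 CPM, stood apart from the other 3 Cre-Cre libraries at 442 to 452 CPM. The gap to its neighbour was 0.857 of the whole range of the group, above Dixon's limit for 4 samples. Gpnmb and Cst7 were each above 0 in Cre-Cre replicate 3 alone among the 4 Cre-Cre libraries, so the gap was the whole range (1.0) for both, as it is for any gene with counts in a single library of 4. For Trem2, chance alone gives such a gap in about 1 in 20 groups, and 8 members were examined. Groups of 3 libraries cannot be examined like this.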

How the results depend on the processing

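No member was called under any alternative in any comparison, and 0 pairs of members passed under each alternative tried for them. Over all genes, the count for Cre-Cre over WT was 9 (3 higher and 6 lower), 272 with DESeq2 (169 higher and 103 lower), 17 with the title letter (3 higher and 14 lower), 1 with the replicate block, and 2 to 12 with a library left out. For Cre-pos over WT it was 0, 193 with DESeq2 and 0 with each library left out. For Cre-Cre over Cre-pos it was 3, 109 with DESeq2, 1 with the title letter, 1 with the replicate block, and 1 to 2 with a library left out. Without WT replicate 3 the count for Cre-Cre over WT was 12, and without WT replicate 2 or 1 it was 4 and 2.

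Of 357 alternative values of the members, 343 kept their direction. For Cre-Cre over Cre-pos, Fabp5 turned to 0.48 with the title letter and 0.40 with the replicate block, and Lgals3 to -0.54 with the replicate block. With a library left out, Fabp5 ran from -0.62 to 0.62, Lgals3 from -0.62 to 0.39 and Tyrobp from -0.12 to 0.029 in that comparison. For Cre-pos over WT, Cst7 ran from -0.20 to 0.95, Spp1 from -0.98 to 0.42 and Gpnmb from -10.4 to 8.59, and Gpnmb from -1.27 to 9.71 for Cre-Cre over WT. The values of 8.59 and 9.71 came without WT replicate 1, the only WT library with Gpnmb counts, and that of -10.4 without Cre-pos replicate 1, the only Cre-pos library with them. Such values depend on the prior count and are no bound. For Gpnmb only 9 fits with a library left out were made. Without Cre-Cre replicate 3, its only Cre-Cre library with counts, it did not pass the count filter. Its ranges therefore lack that fit. Among the pathway genes, for Cre-Cre over WT, Lyn became 0.011 with the replicate block and Tfec 0.0096 with the title letter. With a library left out Lyn ran from -0.056 to 0.062, Tfec from -0.36 to 0.22, Itgb1 from -0.13 to 0.21, Ptpn6 from -0.39 to 0.045 and Cx3cr1 from -0.30 to 0.035. The cause was not tested.

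Trem2 for Cre-Cre over WT ran from -0.39 to -0.23 over all alternatives, with an adjusted p of 0.265 to 0.878, and for Cre-Cre over Cre-pos from -0.61 to -0.35, with an adjusted p of 0.0575, by DESeq2, to 1.0. Lgals3 for Cre-Cre over WT ran from -2.31 to -1.29, and Cst7 from -9.65, without Cre-Cre replicate 3, its only Cre-Cre library with counts, to -4.43. With a library left out, the log2 ratio of Trem2 to Tyrobp ran from -0.53 to -0.31 for Cre-Cre over WT, and from -0.087 to 0.13 for Cre-pos over WT. Among the pathway genes named, Cd9 and Tmem119 passed without the count filter (adjusted p = 0.0202 for Cd9 and 0.0485 for Tmem119), and Cd9, Axl and Tmem119 with the title letter (adjusted p = 0.0404 for Cd9 and Axl and 0.0433 for Tmem119). For Cre-Cre over WT, list medians turned sign with a library left out for the signalling partners (-0.059 to 0.047), early genes (-0.026 to 0.10), lipid genes (-0.12 to 0.14), osteopontin receptors (-0.35 to 0.31), MITF and TFE factors (-0.35 to 0.097), cystatins and proteases (-0.020 to 0.14), C-type lectins (-0.064 to 0.54), galectins (-0.17 to 0.033) and fatty acid-binding proteins (-1.89 to 6.37). They kept it for the DAP12-coupled receptors (-2.01 to -1.10), late genes (-0.58 to -0.32) and homeostatic genes (-0.91 to -0.061). Same-numbered libraries of different genotypes had deviations that correlated at -0.06 to 0.12, above 0.1 for 1 of 8 pairs. Their median was 0.034, beside -0.00155 for libraries of different numbers. Libraries of the same number also share the title letter, so the replicate block takes in the letter. Whether the number pairs the mice cannot be told from these values. Below 10 CPM most genes are at 0 in some library, which limits Cst7 and Gpnmb.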

Other observations

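Each genotype held mice with the letter m and with the letter f in their titles, 6 and 4 libraries in all. With the letter in the fit beside genotype, Fabp5 had a log2 fold change of 1.62 (SE 0.61) for m over f, with means of 14.3 CPM in m and 4.64 CPM in f libraries, which missed the threshold (adjusted p = 0.771 by edgeR). Clec7a had -0.65 (SE 0.25), with means of 114 CPM in m and 153 CPM in f libraries (adjusted p = 0.773 by edgeR). Trem2 and Tyrobp had -0.01 (SE 0.12) and 0.04 (SE 0.08).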
